A study of Homo sapiens with 4 samples.

Results

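The genes described here are 10 receptor tyrosine kinases for growth factors, taken by name from the 60675 genes counted in each library: EGFR, ERBB2, ERBB3 and ERBB4 of the EGF receptor family, IGF1R and INSR of the insulin receptor family, and FGFR1, FGFR2, FGFR3 and FGFR4 of the FGF receptor family. The rule that chose them used no measured value, though earlier results of these data were known. Of the 10, 9 passed the filter on low counts and entered the test, in which 17600 genes were tested, and ERBB4 did not.

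RNA was sequenced from cultures labelled LNCaP, a line derived from a lymph node metastasis of human prostate cancer that grows in response to androgen. All cultures were kept in medium with hormone-depleted serum and received 1 nM of the synthetic androgen R1881 for 72 h. In 2 cultures vehicle was added, and in the other 2 CPI-455, an inhibitor of the KDM5 family of histone demethylases, at 50 µM. KDM5 enzymes remove methyl groups from lysine 4 of histone H3, a mark found at active promoters, and the comparison asks which transcripts differ when they are inhibited in the presence of androgen. The study's methods speak of biological replicates and the labels give the same cell line for all 4, so p-values measure the spread between these cultures only. There was no culture without R1881, and the effect of androgen on these receptors cannot be read from these data.

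Receptor tyrosine kinases span the cell membrane, bind a growth factor outside the cell and, working as pairs, phosphorylate tyrosines on their inner parts. Adaptor proteins dock on these tyrosines and pass the signal to the RAS and PI3K pathways, which drive growth and survival. In prostate cancer these receptors are studied because their signals can sustain growth when androgen signalling is low.

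The vehicle libraries held 19623553 and 20690819 counts and the CPI-455 libraries 9522920 and 5401588, so values with CPI-455 carry the larger counting error. In a check for mixed-up samples 4 of 4 libraries did not match the labelled line. VIM, a filament protein of mesenchymal cells, was at 140 ± 12.2 RPKM (reads per kb of exon, scaled to library size, SD, n = 2) with vehicle and 288 ± 26.0 with CPI-455, which placed it at rank 157 and 109 of 19586 protein-coding genes. EPCAM, an adhesion protein of epithelial cells, was at 1.51 ± 0.153 and 1.96 ± 1.01 RPKM, at rank 10677 and 9708. KLK3, which encodes prostate-specific antigen, was detected, at rank 319 with vehicle and 1666 with CPI-455. Of 9 luminal prostate markers 5 were called lower with CPI-455, 55.6% beside 21.3% of all genes tested (KRT8, CDH1, KLK3, FOLH1 and HOXB13), 4 were not called (KRT18, EPCAM, KLK2 and TMPRSS2), and their summed level went from 849 and 774 to 374 and 436 CPM. The basal markers KRT5 and KRT15 had no count in any library, and KRT14 and TP63 had at most 11. Of the stromal markers COL1A1 was called higher, LUM had no count, and COL1A2, COL3A1, DCN and PDGFRB had at most 15, for a summed level of 5.49 and 4.49 CPM with vehicle and 10.5 and 10.7 CPM with CPI-455. The immune and endothelial markers PTPRC, CD3E, CD68, CD14, PECAM1, VWF and CDH5 summed to between 1.56 and 2.38 CPM. VIM and EPCAM were singled out after their values were seen. All values below are of libraries labelled LNCaP. In bulk RNA fewer cells of a type and less RNA per cell cannot be told apart, and the part of these markers in the receptor values was not tested.

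With CPI-455 the receptor genes did not move as a group. INSR, ERBB3 and EGFR were called lower, by 2.71-fold, 2.56-fold and 2.28-fold, and FGFR4 was called higher, by 2.18-fold. A gene was called where edgeR's quasi-likelihood test gave an adjusted p (FDR, Benjamini-Hochberg over all 17600 genes) below 0.05 and the fold change was at least 2. Of the 9 receptor genes tested, 33.3% were thus called lower and 11.1% higher, beside 21.3% and 21.0% of all genes tested (42.4% in either direction). By FDR alone 8 of the 9 passed, 5 lower and 3 higher, where 62.6% of all genes did (32.8% lower and 29.8% higher). The median log2 fold change (CPI-455 over vehicle) was -0.61 for the 9 and -0.04 for all genes tested. Of the protein-coding genes tested, 24.4% were called lower and 15.6% higher, with a median of -0.21. Of those within the receptor genes' range of exon length, 28.4% were called lower and 12.6% higher, with a median of -0.38. The calls of the receptor genes lay nearer to these shares. The groups did not overlap for any of the 9, with 6 lower and 3 higher, which was common in these libraries: 42.8% of all genes were lower without overlap and 39.1% higher. The summed level of the 10 genes was 697 and 677 CPM with vehicle and 596 and 522 CPM with CPI-455.

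**Figure D1:**
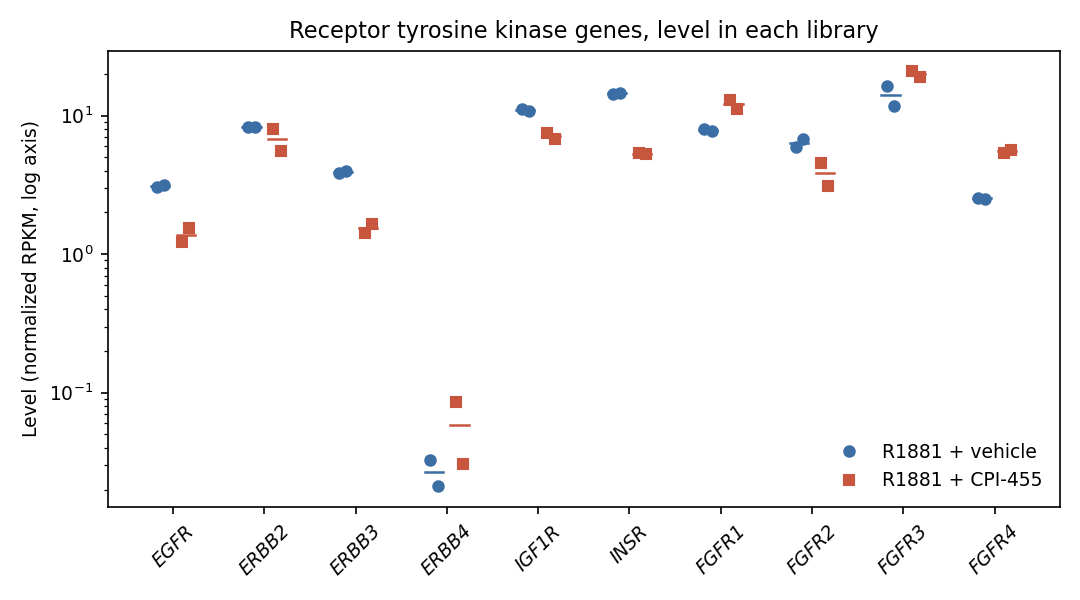
Normalized RPKM (counts scaled to library size, per kb of exon, log axis) of the 10 receptor genes in each library, with 1 point per library. Among the tested genes the vehicle and CPI-455 points of INSR, ERBB3, EGFR and FGFR4 lie farthest apart. ERBB4, not tested, lies at or below 0.0864 RPKM in every library.

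**Figure D2:**
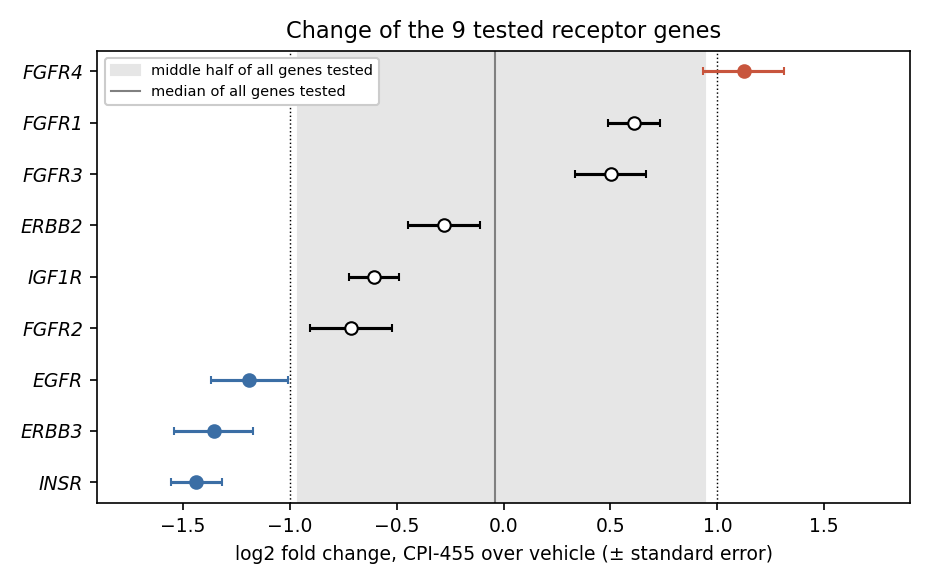
Log2 fold change, CPI-455 over vehicle, of the 9 tested receptor genes with its standard error. Filled points are called, dotted lines mark a 2-fold change, and the grey band is the range from the first to the last quartile of all genes tested (-0.96 to 0.94): INSR, ERBB3, EGFR and FGFR4 lie outside it.

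Promoter sequences are shown for 4 of the genes, the lower EGFR and INSR and the higher FGFR4 with its relative FGFR3, because CPI-455 acts on enzymes that work at promoters. Each is the 250 bases before the RefSeq transcription start nearest the annotated gene start, on GRCh38.p14, 5′ to 3′ on the gene's strand. They lie at chr7:55018767-55019016 (plus strand, EGFR), chr19:7294415-7294664 (minus strand, INSR), chr4:1793043-1793292 (plus strand, FGFR3) and chr5:177086665-177086914 (plus strand, FGFR4). Capitals mark the GC box GGGCGG on either strand, the letters bound by factors of the SP family.
EGFR: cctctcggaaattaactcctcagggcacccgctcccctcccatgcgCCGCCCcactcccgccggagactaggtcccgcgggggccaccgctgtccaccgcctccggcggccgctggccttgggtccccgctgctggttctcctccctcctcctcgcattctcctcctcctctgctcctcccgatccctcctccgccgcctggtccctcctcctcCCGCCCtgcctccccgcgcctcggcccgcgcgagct
INSR: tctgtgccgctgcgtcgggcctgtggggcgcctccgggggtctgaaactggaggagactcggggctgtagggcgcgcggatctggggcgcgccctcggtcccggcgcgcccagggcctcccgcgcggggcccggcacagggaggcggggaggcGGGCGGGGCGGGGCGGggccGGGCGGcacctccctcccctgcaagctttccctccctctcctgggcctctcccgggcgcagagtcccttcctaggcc
FGFR3: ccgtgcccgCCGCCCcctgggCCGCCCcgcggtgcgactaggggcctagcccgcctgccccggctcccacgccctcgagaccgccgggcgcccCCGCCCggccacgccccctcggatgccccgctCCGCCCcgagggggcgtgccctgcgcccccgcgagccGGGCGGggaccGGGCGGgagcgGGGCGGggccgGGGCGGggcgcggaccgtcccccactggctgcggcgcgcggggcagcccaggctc
FGFR4: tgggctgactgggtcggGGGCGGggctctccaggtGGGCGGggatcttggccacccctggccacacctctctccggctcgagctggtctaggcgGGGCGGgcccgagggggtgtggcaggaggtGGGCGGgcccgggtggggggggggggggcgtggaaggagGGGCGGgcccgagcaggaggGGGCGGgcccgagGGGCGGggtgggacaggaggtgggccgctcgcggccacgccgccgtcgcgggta

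Promoter windows were read for 8 of the 10 genes, and not for ERBB3 and FGFR1. The GC box was found 8 times before FGFR3, 7 times before FGFR4, 4 times before INSR, 3 times before FGFR2, 2 times each before EGFR and IGF1R, once before ERBB4 and not before ERBB2. Among all 35116 promoters listed, 42.6% held at least 1 and 7.63% held at least 4. The 3 receptor genes with 4 or more did not share a direction, as INSR was called lower, FGFR4 was called higher and FGFR3 was not called. No TATA box (TATAAA, either strand) was found in the 8 windows, against 10.7% of all promoters. The letters AGAACA, a half-site of the androgen receptor, were found once, before ERBB4, against 12.4% of all promoters. The GC content of the 8 windows ran from 57.2% (ERBB4) to 86.8% (FGFR3), with a median of 58% over all promoters. Copies of the GC box that share letters, as before INSR, were counted separately. EGFR and FGFR4 had 2 RefSeq entries each and FGFR2 had 5, and only the entry nearest the annotated gene start was searched. The start used lay 432 bases from the annotated gene start for IGF1R, 380 bases for INSR and 180 bases for ERBB2. For ERBB2 it lay inside the annotated gene, so most of that window is not upstream of the gene. The lack of a GC box there describes this window only. The motifs searched have different letters, and a match is a description of the sequence only.

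In the EGF receptor family CPI-455 was accompanied by lower EGFR and ERBB3, while ERBB2 was not called. EGFR, on chr7:55019021-55256620 (plus strand), encodes the receptor of EGF and TGF-alpha. Its normalized level was 39.7 and 40.9 CPM with vehicle and 15.7 and 20.0 CPM with CPI-455 (40.3 ± 0.859 and 17.9 ± 3.03, SD, n = 2). Both CPI-455 cultures lay below both vehicle cultures. This was a log2 fold change of -1.19 (SE 0.18), with FDR = 0.000347 by edgeR's quasi-likelihood test, from 838 and 893 counts against 140 and 101. The call was lost when the trend of fold change with exon length and GC content was removed (-0.86).

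ERBB3, on chr12:56079857-56103505 (plus strand), encodes a neuregulin receptor whose own kinase is nearly inactive and which signals through its partner, often ERBB2. It measured 33.1 and 34.2 CPM with vehicle and 12.3 and 14.3 CPM with CPI-455 (33.7 ± 0.752 and 13.3 ± 1.43). The separation was wider than the spread within either group. ERBB3 thus had a log2 fold change of -1.36 (SE 0.18), with FDR = 0.000176 by edgeR's quasi-likelihood test. ERBB3 was called lower under all 16 alternative settings.

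ERBB2, on chr17:39687914-39730426 (plus strand), encodes the partner receptor that binds no ligand of its own. It was at 85.6 and 85.7 CPM with vehicle and at 82.8 and 57.1 CPM with CPI-455. The first CPI-455 library was close to the vehicle libraries and the second was well below them. The log2 fold change of -0.28 (SE 0.17) did not pass edgeR's quasi-likelihood test (FDR = 0.176), and it rested on single libraries: it was -0.60 without the first CPI-455 library (FDR = 2.73e-05) and -0.09 without the second. Of its exon bases 7.41% are shared with the neighbouring genes MIEN1 and PGAP3, and fragments on shared bases were not counted.

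ERBB4, on chr2:211375717-212538841 (minus strand), encodes the other neuregulin receptor. Its counts were 9 and 6 in the vehicle cultures, 10 and 2 in the treated ones, or 0.426, 0.275, 1.12 and 0.397 CPM. A level of 3 counts corresponds to 0.153, 0.145, 0.315 and 0.555 CPM in the 4 libraries before normalization. As ERBB4 did not pass the filter, a difference between the groups was not tested.

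Within the family the balance shifted toward ERBB2. Per kb of exon, ERBB2 made up 54.5% and 53.8% of the family's counts in the vehicle libraries, against 74.7% and 63.2% in the CPI-455 libraries, while EGFR went from 20.3% ± 0.238 to 14.5% ± 4.48 and ERBB3 from 25.4% ± 0.324 to 16.0% ± 3.99. The groups did not overlap for any of these 3 shares, but the CPI-455 libraries differed: without the first the share of EGFR changed by -2.64 percentage points and that of ERBB2 by 9.02, and without the second by -8.97 and 20.5. An exact permutation test of 2 against 2 libraries (two-sided) gave p = 0.333 for each, the smallest value this design allows. The ratio of ERBB2 to EGFR, per kb of exon, was 2.71 and 2.63 with vehicle, against 6.60 and 3.58 with CPI-455, and that of ERBB2 to ERBB3 was 2.17 and 2.10 and then 5.66 and 3.36.

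In the insulin receptor family both genes were lower, INSR by more than IGF1R. INSR, on chr19:7112255-7294034 (minus strand), encodes the insulin receptor, which also forms hybrids with the IGF1 receptor. Its level was 149 and 153 CPM with vehicle and 56.3 and 54.9 CPM with CPI-455 (151 ± 2.73 and 55.6 ± 1.00), from 3145, 3336, 501 and 277 counts. The replicates were close in both groups. The log2 fold change was -1.44 (SE 0.12), with FDR = 8.39e-06 by edgeR's quasi-likelihood test, and the call held under all 16 alternative settings.

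IGF1R, on chr15:98648971-98964530 (plus strand), encodes the receptor of IGF1 and IGF2. It measured 151 and 145 CPM with vehicle and 102 and 92.0 CPM with CPI-455 (148 ± 4.34 and 96.8 ± 6.83). The groups were apart, but by 1.52-fold, under the 2-fold limit. IGF1R thus had a log2 fold change of -0.61 (SE 0.12), with FDR = 0.00158 by edgeR's quasi-likelihood test.

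The order of the pair turned over. Per kb of exon the ratio of INSR to IGF1R was 1.28 and 1.37 with vehicle, against 0.716 and 0.772 with CPI-455, so that INSR was the more abundant of the pair in both vehicle libraries and the less abundant in both CPI-455 libraries. The share of IGF1R went from 43.1% ± 1.16 to 57.4% ± 1.29, without overlap (exact permutation test, p = 0.333, the smallest possible).

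In the FGF receptor family the members went in different directions, with FGFR4 called higher and the other 3 not called. FGFR4, on chr5:177086886-177098144 (plus strand), encodes the receptor of the endocrine FGF19 in liver and other epithelia. Its level was 12.3 and 12.1 CPM with vehicle and 25.9 and 27.4 CPM with CPI-455 (12.2 ± 0.0906 and 26.6 ± 1.06), from 259, 265, 230 and 138 counts. The 2 replicates of each group lay close together. FGFR4 thus had a log2 fold change of 1.12 (SE 0.19), with FDR = 0.000689 by edgeR's quasi-likelihood test. The call was lost when libraries were scaled by their totals alone (0.93) or no filter was used (0.97).

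FGFR1, on chr8:38411138-38468834 (minus strand), encodes the receptor for FGF2 and many other FGFs. It measured 102 and 99.0 CPM with vehicle and 165 and 141 CPM with CPI-455 (101 ± 2.14 and 153 ± 17.3). Both CPI-455 values were above the vehicle values, by 1.53-fold on average. The log2 fold change of 0.61 (SE 0.12) had FDR = 0.00199 by edgeR's quasi-likelihood test and lay under the 2-fold limit.

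FGFR3, on chr4:1793307-1808872 (plus strand), measured 79.4 and 56.9 CPM with vehicle and 101 and 92.0 CPM with CPI-455 (68.1 ± 15.9 and 96.3 ± 6.03). The vehicle libraries were farther from each other than the CPI-455 libraries. For FGFR3 the log2 fold change was 0.50 (SE 0.17), with FDR = 0.0252 by edgeR's quasi-likelihood test, and it was 0.25 without the second vehicle library (FDR = 0.412) and 0.74 without the first.

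FGFR2, on chr10:121478334-121598458 (minus strand), encodes the receptor whose epithelial splice form binds FGF7 and FGF10. It was at 44.7 and 50.9 CPM with vehicle and at 34.0 and 23.4 CPM with CPI-455 (47.8 ± 4.37 and 28.7 ± 7.47). The groups did not overlap. The log2 fold change of -0.71 (SE 0.19) had FDR = 0.00928 by edgeR's quasi-likelihood test and was under the 2-fold limit, which it passed without the first CPI-455 library (-1.05).

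The makeup of the family per kb of exon moved from FGFR2 toward FGFR4. The share of FGFR2 went from 20.8% ± 3.84 to 9.21% ± 1.66, that of FGFR4 from 8.20% ± 0.708 to 13.4% ± 1.63 and that of FGFR1 from 25.7% ± 1.86 to 29.1% ± 0.914, each without overlap and with p = 0.333 by the exact permutation test. The difference for FGFR1, 3.44 percentage points, was 2.12 without the first vehicle library. FGFR3 had the largest share of the 4 in both groups, 45.3% ± 6.41 and 48.2% ± 0.941, and its libraries overlapped (exact permutation test, p = 1). The ratio of FGFR1 to FGFR2 was 1.35 and 1.15 in vehicle and 2.87 and 3.55 with CPI-455.

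**Figure D3:**
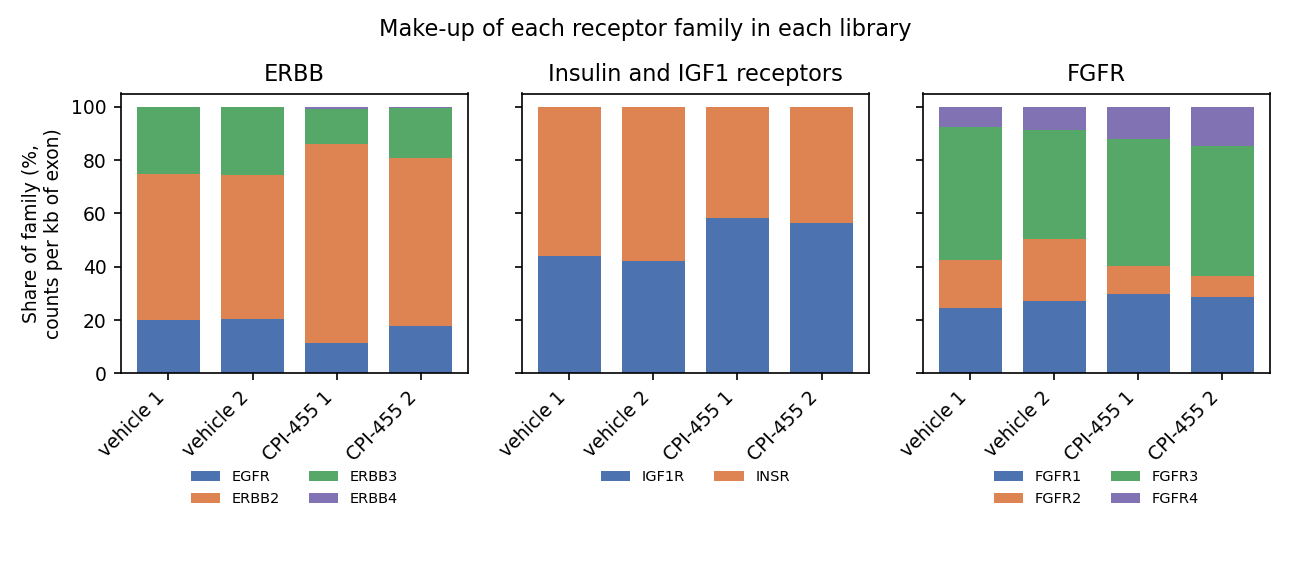
Share (%) of each gene in the counts per kb of exon of its receptor family, in each library. ERBB2 is at or above 53.8% in every library, IGF1R passes INSR with CPI-455, and the share of FGFR2 is lower with CPI-455.

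Compared between genes, per kb of exon, the levels with vehicle ran from INSR (14.4 ± 0.261 RPKM) and FGFR3 (14.1 ± 3.30) through IGF1R (10.9 ± 0.321), ERBB2 (8.30 ± 0.00173), FGFR1 (7.92 ± 0.169), FGFR2 (6.38 ± 0.584), ERBB3 (3.89 ± 0.0868), EGFR (3.11 ± 0.0663) and FGFR4 (2.53 ± 0.0188) to ERBB4 (0.0269). INSR and FGFR3 overlapped, and the other neighbours in this order did not. With CPI-455 the order was FGFR3 (19.9 ± 1.25 RPKM), FGFR1 (12.1 ± 1.37), IGF1R (7.17 ± 0.505), ERBB2 (6.78 ± 1.76), FGFR4 (5.51 ± 0.220), INSR (5.32 ± 0.0957), FGFR2 (3.83 ± 0.998), ERBB3 (1.53 ± 0.165), EGFR (1.38 ± 0.234) and ERBB4 (0.0584). Here IGF1R and ERBB2, ERBB2 and FGFR4, FGFR4 and INSR, and ERBB3 and EGFR overlapped as neighbours. INSR thus stood at or next to the top with vehicle and below FGFR3, FGFR1 and IGF1R with CPI-455.

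The log2 fold changes of the 9 genes went with the base composition of their exons, which the choice of genes did not use, although ERBB2 was lower and FGFR1, with less GC, was higher. The 4 genes with exon GC content from 55.4% to 62.7% (FGFR1, ERBB2, FGFR3 and FGFR4) had log2 fold changes from -0.28 to 1.12, and the 5 with 47.4% to 50.6% (EGFR, INSR, FGFR2, IGF1R and ERBB3) had -1.44 to -0.61. Across the 9 genes the log2 fold change and the exon GC content had Pearson's r = 0.88 and Spearman's rho = 0.82, as a description across genes that share the same 4 libraries. Across all 13813 protein-coding genes tested r was 0.17 and rho 0.19. Among the 6814 protein-coding genes within the receptor genes' range of exon length, the median log2 fold change was -0.60 below 45% GC, -0.50 from 45% to 50%, -0.18 from 50% to 55%, 0.10 from 55% to 60% and 0.26 above 60%. With the trend on length and GC content removed, INSR (-1.11) and ERBB3 (-1.04) were still called lower and FGFR4 (1.07) higher, and EGFR was not called.

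**Figure D4:**
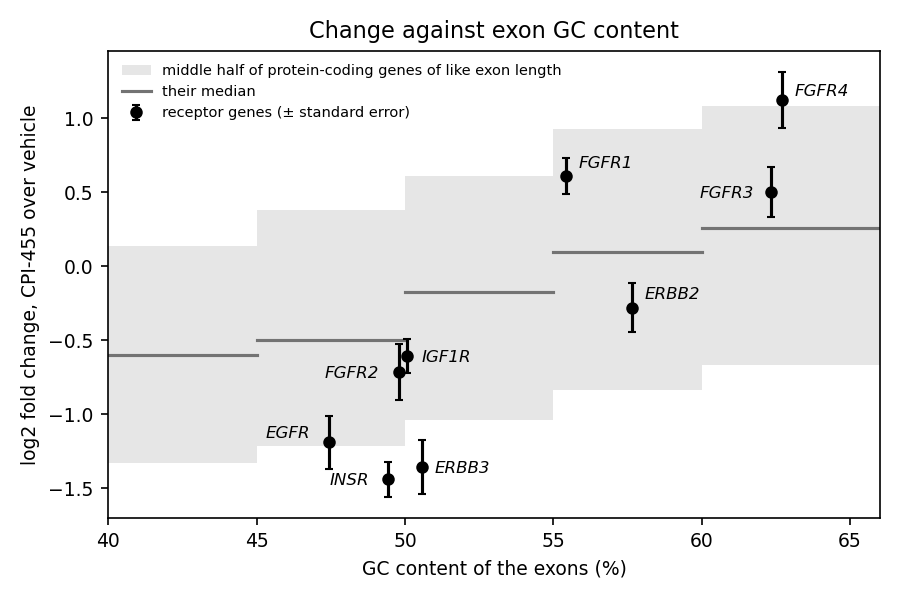
Log2 fold change, CPI-455 over vehicle, against the GC content of the exons (%) for the 9 tested receptor genes, with standard errors. Grey boxes and lines give the range between quartiles and the median of protein-coding genes of like exon length: the medians go from -0.60 to 0.26, INSR and ERBB3 lie below the boxes, and FGFR4 lies just above.

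The genes around the receptors were counted from lists of the pathway. The shares of all genes set beside them are not matched for gene type, exon length or GC content. Of the protein-coding genes tested, 24.4% were called lower and 15.6% higher. Of those below 45% exon GC and within the receptor genes' range of exon length, 34.8% were called lower and 6.26% higher. The part of exon length and GC content in the list values was not tested. Of 11 EGF family ligands 5 were tested (median log2 fold change -0.41, beside -0.04 for all genes) and 2 were called lower (40%, beside 21.3% of all genes), TGFA (66, 71, 1 and 4 counts in the 4 libraries, vehicle first) and NRG4 (26, 18, 1 and 0 counts). Both had few counts and were named after their values were seen, and neither was tested when 10 counts were required in every library. HBEGF, a ligand of EGFR and ERBB4 also named after its values were seen, was not called (130, 156, 88 and 57 counts, FDR = 0.0556 by edgeR's quasi-likelihood test).

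Of 18 FGF ligands 8 were tested, 3 were called lower (37.5%, beside 21.3% of all genes) and 1 higher (12.5%, beside 21.0%). The tested ligands had a median log2 fold change of -1.17. FGF2, the broadly acting ligand, had 820, 1078, 197 and 76 counts (log2 fold change -1.22, SE 0.21). FGF21, an endocrine ligand, had 325 and 413 counts and then 25 and 31 (-2.02, SE 0.35). FGF17 was the ligand called higher, with 38 and 35 counts and then 91 and 44 (2.48, SE 0.36). FGF19, the endocrine ligand of FGFR4, was called lower from 47, 47, 5 and 0 counts and was named after its values were seen.

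Of the 9 insulin and IGF ligands and IGF binding proteins 5 were tested and 3 were called lower (60%, beside 21.3% of all genes), namely IGF2 (-1.09, SE 0.38), IGFBP4 (-1.52, SE 0.23) and IGFBP3. IGFBP3, named after its values were seen, had 25 and 23 vehicle counts and 0 in both CPI-455 libraries. IGFBP2 (-0.22) and IGFBP5 (0.82), which like the others bind IGFs outside the cell, were not called and were named after their values were seen. The median log2 fold change of the 5 tested was -1.09.

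The proteases that release membrane-bound EGF family ligands were lower with CPI-455. ADAM10 had 2079 and 2078 counts in the vehicle cultures, against 182 and 94 in the treated ones (log2 fold change -2.30, SE 0.14), and ADAM17 was lower by a log2 fold change of -1.87 (SE 0.18). IGF2R, which takes IGF2 into the cell for breakdown, had 5794, 6143, 871 and 338 counts (-1.74, SE 0.17). These were the 3 genes called lower of 4 tested and 6 listed as proteases and co-receptors (75% of those tested, beside 21.3% of all genes), and the median of the 4 was -1.81. The exon GC content was 37.5% for ADAM10, 40.7% for ADAM17 and 48.8% for IGF2R. Below 45% exon GC, 29.9% of the protein-coding genes tested were called lower and 9.19% higher.

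Of 17 adaptors and docking proteins, all tested, 7 were called lower (41.2%, beside 21.3% of all genes) and 2 higher (11.8%, beside 21.0%). They had a median of -0.77 on the log2 scale. IRS1, the docking protein of INSR and IGF1R, had 439, 497, 31 and 9 counts (log2 fold change -2.96, SE 0.31). FRS2, which docks on FGF receptors, was lower by -2.41 (SE 0.18) and SOS1, which loads RAS with GTP, by -2.15 (SE 0.23). The 2 called higher were GRB14, an inhibitor of insulin receptor signalling, with 89, 110, 313 and 209 counts (3.04, SE 0.22), and IRS4, another docking protein, with 2306, 2163, 2286 and 1296 counts (1.30, SE 0.11). Of 13 brakes and turnover factors 12 were tested (median -0.56) and 2 were called lower (16.7%, beside 21.3% of all genes), the ubiquitin ligase CBL (-1.47, SE 0.14) and LRIG1 (-1.30, SE 0.15), while ERRFI1, which blocks the EGFR kinase and was named after its values were seen, had a log2 fold change of -0.02.

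Against these receptor genes, 37 of 48 other receptor tyrosine kinase genes were tested, of which 13 were called lower (35.1%, beside 21.3% of all genes) and 6 higher (16.2%, beside 21.0%). Their median was -0.63 on the log2 scale. EPHB3, an ephrin receptor, had 310, 311, 19 and 3 counts (-3.23, SE 0.41), followed by ROS1 (-3.10, SE 0.41) and FLT1, a VEGF receptor (-2.68, SE 0.27). LTK (1.55, SE 0.30) and EPHA8 (1.23, SE 0.35) were among those called higher. The median of the 9 growth factor receptor genes, -0.61, was close to this value.

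**Figure D5:**
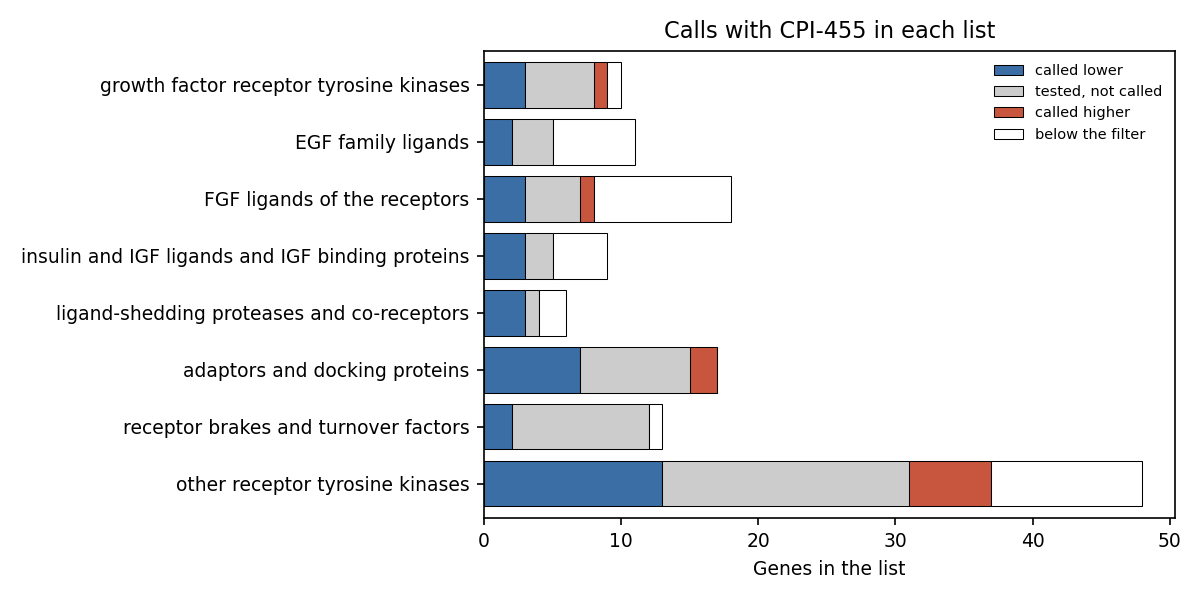
Number of genes called lower, not called, called higher or below the filter with CPI-455 in each list of the pathway. Adaptors and docking proteins have 7 lower and 2 higher of 17, and the receptor genes 3 lower and 1 higher of 9 tested.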

How the data were processed

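RNA-seq libraries of 4 cultures were analysed, 2 per group, with groups and replicate numbers from the sample labels. The authors deposited raw counts per gene, made by trimming with Trim Galore, alignment to GRCh38 with STAR and counting of fragments by featureCounts v1.5.0-p1 over Ensembl release 83 exons. Per the file headers strand was not used, and fragments overlapping several genes were left out. The labels and the study's methods differ in the vehicle's DMSO content.

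Libraries were normalized with TMM in edgeR 4.0.16 (R 4.3.3), filterByExpr (minimum count 10) kept 17600 genes, and these were fitted together by glmQLFit and glmQLFTest, without covariates. CPM values are normalized, and RPKM values are CPM per kb of exon. Log2 fold changes are CPI-455 over vehicle. A call needed both an FDR (Benjamini-Hochberg) under 0.05 and a 2-fold difference or more. On simulated counts with 200 genes changed by a log2 fold change of 1.5, 146 were called, with 3 others. Alternatives used edgeR with other settings, DESeq2 1.42.0 and mgcv 1.9.3. Counting floors cover counting error only.

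The receptor genes and lists were chosen with earlier results of these data known. All 10 receptor genes and the cell type markers are named, apart from an item that is not reported here, and from each other list up to 3 calls per direction, ranked by size of log2 fold change, at a mean log2 CPM of at least 2. Exceptions are marked in the text. Symbols matched 56558 of the 60675 genes. Promoters are from RefSeq (GRCh38.p14). Replicate numbers were not taken as pairs, since the study's methods name no pairing. Deviations of same-numbered libraries correlated at 0.04.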

Additional observations from a re-analysis of the deposited data

How the results depend on the processing

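Directions of the 9 tested receptor genes held under all 16 alternatives. INSR, from -1.63 to -1.10, and ERBB3, from -1.55 to -1.04, were called under each of them. EGFR ranged from -1.40 to -0.86 and lost its call with the length and GC trend removed, with or without the replicate block, and under glmTreat, which tests against a 2-fold change. FGFR4 ranged from 0.93 to 1.32 and lost its call with library totals, without a filter and under glmTreat, so that 0 receptor genes were called higher there. The other ranges were -0.60 to -0.09 for ERBB2, -0.80 to -0.36 for IGF1R, 0.42 to 0.78 for FGFR1, -1.05 to -0.39 for FGFR2 and 0.25 to 0.74 for FGFR3. The median of all genes, -0.04 with TMM, was 0.14 with upper-quartile scaling and -0.23 with library totals. With the replicate number as a block, 3 receptor genes were called lower and 1 higher, as without it, and 3745 genes in all were called lower and 3422 higher, beside 3756 and 3698. Under glmTreat 2350 genes were called lower and 2455 higher, with 1 FGF ligand and 8 other receptor tyrosine kinases lower and 2 of the latter higher. EGF family ligands called lower numbered 0 with at least 10 counts in every library, a filter that left TGFA and NRG4 untested. Those called lower numbered 1 with DESeq2, glmTreat, thinned counts, or the trend removed with the replicate block. With the trend removed, with and without the block, 1 gene of the insulin and IGF list and 1 brake were called higher, and without the block 8 other receptor tyrosine kinases were called lower. Thinned counts left 1 insulin and IGF list gene lower, upper-quartile scaling gave 1 brake higher, and library totals or no filter gave 5 brakes lower. Leaving out 1 library gave 0 to 3 EGF family ligands lower, 1 to 4 insulin and IGF list genes lower and 0 to 1 higher, 2 to 4 brakes lower and 1 to 5 other receptor tyrosine kinases higher. These fits assume that the lone library varies like the other group. The share of FGFR1 in its family differed by 6.18 percentage points from raw counts and by 3.44 per kb. The difference in the share of FGFR3 ran from -1.57 (without vehicle replicate 2) to 7.50 percentage points. The cause of these changes was not tested. Depth limits ERBB4 and the ligands with few counts most.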

Other observations

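The levels per kb of exon of 3 receptor tyrosine kinases outside the EGF, insulin and FGF receptor families are given here. They were chosen after their values were seen. PTK7, a pseudokinase of the planar polarity pathway, was at 22.4 ± 0.452 RPKM with vehicle and 15.7 ± 2.53 with CPI-455, and EPHB4, an ephrin receptor, was at 19.2 ± 0.641 and 28.6 ± 0.0302 RPKM. FLT4, the VEGF receptor of lymphatic vessels, was at 15.5 ± 0.0799 and 18.4 ± 2.55 RPKM. None of these 3 genes was called, with log2 fold changes of -0.50 (SE 0.13), 0.57 (SE 0.11) and 0.25 (SE 0.13).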
